A study of Mus musculus with 13 samples.

Results

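Interferons are secreted signals of the antiviral response, and 9 of the genes they are known to induce are described here across the cell types of the mouse hippocampus: Stat2, Parp14, Rnf213, Eif2ak2, Trim30a, Xaf1, Bst2, Ifit3 and Nlrc5. They were fixed by name and matched by symbol, and all 9 were found among the 32285 genes listed for every library. Nuclei came from the whole hippocampus of 13 female mice of the C3B6F1 hybrid strain, which the sample characteristics write as C3HB6F1, with 1 library of single nuclei per mouse. Young mice of 5 months fed freely (ad libitum) gave 3 libraries, and old mice of 24 months fed freely gave 3. Old mice of 24 months under dietary restriction from 20 months of age, called acutely restricted below, gave 3 libraries. Old mice of 24 months restricted from 5 months of age, called long-term restricted, gave 4. No group carried a transgene or a deletion according to the labels, and the degree of restriction is not given in the sources used here. Young mice under restriction were no part of the design.

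The 9 are protein-coding genes at these places of GRCm38 (GENCODE vM21 gene bounds). Trim30a lies at chr7:104409025-104465193, Bst2 at chr8:71534255-71537456 and Nlrc5 at chr8:94434356-94527272. Stat2 lies at chr10:128270559-128292849, Xaf1 at chr11:72301629-72313733 and Rnf213 at chr11:119393100-119487418. Parp14 lies at chr16:35832874-35871544, Eif2ak2 at chr17:78852564-78882573 and Ifit3 at chr19:34583531-34588731. Genes not typed as protein-coding overlap Trim30a, Nlrc5, Rnf213, Parp14 and Eif2ak2. Those on the opposite strand are Gm25405 (Trim30a), 9330175E14Rik (Nlrc5), A930037H05Rik (Rnf213), and Gm26637 and n-R5s29 (Eif2ak2). The use of strand in the counting is not given in the sources used here.

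Type I interferons bind the receptor IFNAR, whose kinases JAK1 and TYK2 activate STAT2. STAT2 acts within the complex ISGF3, which binds interferon-stimulated response elements (ISRE) near the start of its target genes, and the gamma-activated site (GAS) is another sequence of interferon signalling. STAT2 is thus a part of the signal, and the other members are products of the response. EIF2AK2 (PKR) is a kinase that double-stranded RNA activates and that halts translation. IFIT3 belongs to a complex that holds viral RNA, PARP14 transfers ADP-ribose, RNF213 is a very large ubiquitin ligase, and TRIM30A is a mouse TRIM protein. BST2 (tetherin) holds budding virus at the membrane, XAF1 binds the apoptosis inhibitor XIAP, and NLRC5 switches on genes of MHC class I presentation. In the brain, microglia and vessel cells are the types best known for this programme, and neurons are known for low levels of it.

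The promoters are shown first because the ISRE is the sequence through which ISGF3 acts. RefSeq windows of 300 bases (250 before the transcript start and 50 after it, GRCm38.p6) were found for 7 of the 9 genes, all but Nlrc5 and Parp14, with a pair of windows for Trim30a. The ISRE was searched as GAAA, any 2 bases and GAAA, and the GAS as TTC, any 3 bases and GAA, on both strands and with overlaps allowed. At least 1 ISRE match was present for 5 of the 7 genes, against 1131 of all 32851 windows (3.44%), and no match lay in the windows of Rnf213 and Xaf1. The Rnf213 window (chr11:119389849-119390148) lies before the gene start given above, so that it covers another start. A GAS match was present for Eif2ak2 and Bst2, against 2726 of the 32851 windows (8.30%). Capitals mark the ISRE match in each stretch, which is written 5′ to 3′ along the gene's own strand and ends at the base before the transcript start, except that Eif2ak2 is shown for the 30 bases around its match.
Stat2 (chr10:128270248-128270497, plus strand): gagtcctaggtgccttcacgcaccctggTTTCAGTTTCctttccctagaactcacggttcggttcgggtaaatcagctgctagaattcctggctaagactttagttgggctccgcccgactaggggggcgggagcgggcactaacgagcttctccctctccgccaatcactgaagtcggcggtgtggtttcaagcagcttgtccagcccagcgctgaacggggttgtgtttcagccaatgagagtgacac
Eif2ak2 (chr17:78882535-78882564, minus strand): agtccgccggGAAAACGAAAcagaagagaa
Trim30a (chr7:104465194-104465443, minus strand): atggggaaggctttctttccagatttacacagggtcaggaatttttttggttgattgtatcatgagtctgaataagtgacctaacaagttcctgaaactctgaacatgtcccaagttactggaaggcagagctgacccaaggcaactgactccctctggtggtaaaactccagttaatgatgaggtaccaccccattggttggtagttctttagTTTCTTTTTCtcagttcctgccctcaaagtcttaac
Bst2 (chr8:71537473-71537722, minus strand): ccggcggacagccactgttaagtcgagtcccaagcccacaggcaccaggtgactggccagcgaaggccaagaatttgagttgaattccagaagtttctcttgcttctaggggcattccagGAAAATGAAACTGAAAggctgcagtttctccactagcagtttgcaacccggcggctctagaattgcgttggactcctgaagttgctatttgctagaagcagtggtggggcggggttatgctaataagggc
Ifit3 (chr19:34583279-34583528, plus strand): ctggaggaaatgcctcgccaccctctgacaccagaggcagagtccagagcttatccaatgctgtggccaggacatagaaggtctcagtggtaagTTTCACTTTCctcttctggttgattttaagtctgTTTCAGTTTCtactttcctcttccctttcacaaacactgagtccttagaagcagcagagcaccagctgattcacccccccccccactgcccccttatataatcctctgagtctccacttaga
Counted from the transcript start, the match began at -222 for Stat2, at 19 for Eif2ak2 and at -36 for Trim30a. In the other Trim30a window it began at 3, with the same 10 letters, TTTCTTTTTC. Bst2 had a pair of overlapping matches at -130 and -124, so that its capitals run on, and Ifit3 a pair at -156 and -122. These are matches of letters and not measured binding sites.

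The libraries held 105759 barcodes, of which 98041 were kept as nuclei after filters on genes, mitochondrial reads and doublets. Library totals ran from 38546292 to 80538090 UMIs (unique molecular identifiers, each counted as 1 RNA molecule), and the median nucleus from 3688 to 11195 UMIs. Barcode sequences found in more than 1 library numbered 1351, on 2.57% of the barcodes. Clusters were named from markers, with all 9 genes and the other interferon genes kept out of the clustering, and 79830 nuclei fell into 15 named classes, each written below without the "-like" that marks a name given from markers. Microglia had 9 of 9 markers raised, macrophages 8 of 8, and neither had a gene of the members or lists among its 10 leading genes. Levels are UMIs of a gene summed over all nuclei of a class in 1 mouse and scaled to an equal total (CPM). They are not scaled to gene length, so that a gene is compared only with itself. A mouse entered a class with at least 20 nuclei, and nothing separates fewer expressing nuclei from less RNA per nucleus in such sums. Granule neurons (40445 nuclei), oligodendrocytes (9997), CA1 neurons (8277), astrocytes (7309), inhibitory neurons (5091), oligodendrocyte precursors (2804) and microglia (1636) were tested in all 13 mice. CA3 neurons were tested in 11 mice, and endothelial and mural cells in 9 each. Fibroblasts (794 nuclei), macrophages (138) and 3 rarer neuron classes had too few mice in 1 or more groups and are described only.

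As a sum, the 9 genes were highest in macrophages, microglia, endothelial cells and fibroblasts. That order did not hold for every member, and each is given below. Summed over the 9, the level was 458 ± 121 CPM in microglia (SD, n = 13 mice), 337 ± 153 in endothelial cells (n = 9), 265 ± 56.9 in fibroblasts (n = 9) and 134 ± 40.7 in astrocytes (n = 13). In granule neurons it was 29 ± 3.9 CPM (n = 13), most of it from Stat2. Each class was compared with all other named nuclei of the same mouse on log2(CPM + 1), by an exact two-sided sign-flip permutation test over mice, with p-values adjusted over all 226330 pairs of a gene and a class. Of 90 pairs of a member and a class, 26 were higher and 31 lower at an adjusted p below 0.05. Over all genes, 17.6% of pairs were called higher and 41.7% lower. In microglia 6 of 9 members were higher and none lower, against 18.3% of all genes called higher there. The same counts held in endothelial cells, where 11.8% of all genes were higher, and in astrocytes, where 27.0% were. With 1 mouse left out, Parp14 in astrocytes no longer passed without young mouse 1, 2 or 3, old freely fed mouse 2, acutely restricted mouse 1 or long-term restricted mouse 3 (adjusted p up to 0.0704). Trim30a in endothelial cells did not pass without old freely fed mouse 1 or 2, acutely restricted mouse 1, 2 or 3, or long-term restricted mouse 1 or 4 (adjusted p up to 0.0534). In granule neurons 9 of 9 were lower, against 50.2% of all genes. Granule neurons were the largest named class in every mouse, with a share that varied (810 of 2582 named nuclei in old freely fed mouse 1, 4579 of 7139 in young mouse 2). The differences of the other classes thus set them in part against granule neurons, to a degree that differs between mice.

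**Figure D1:**
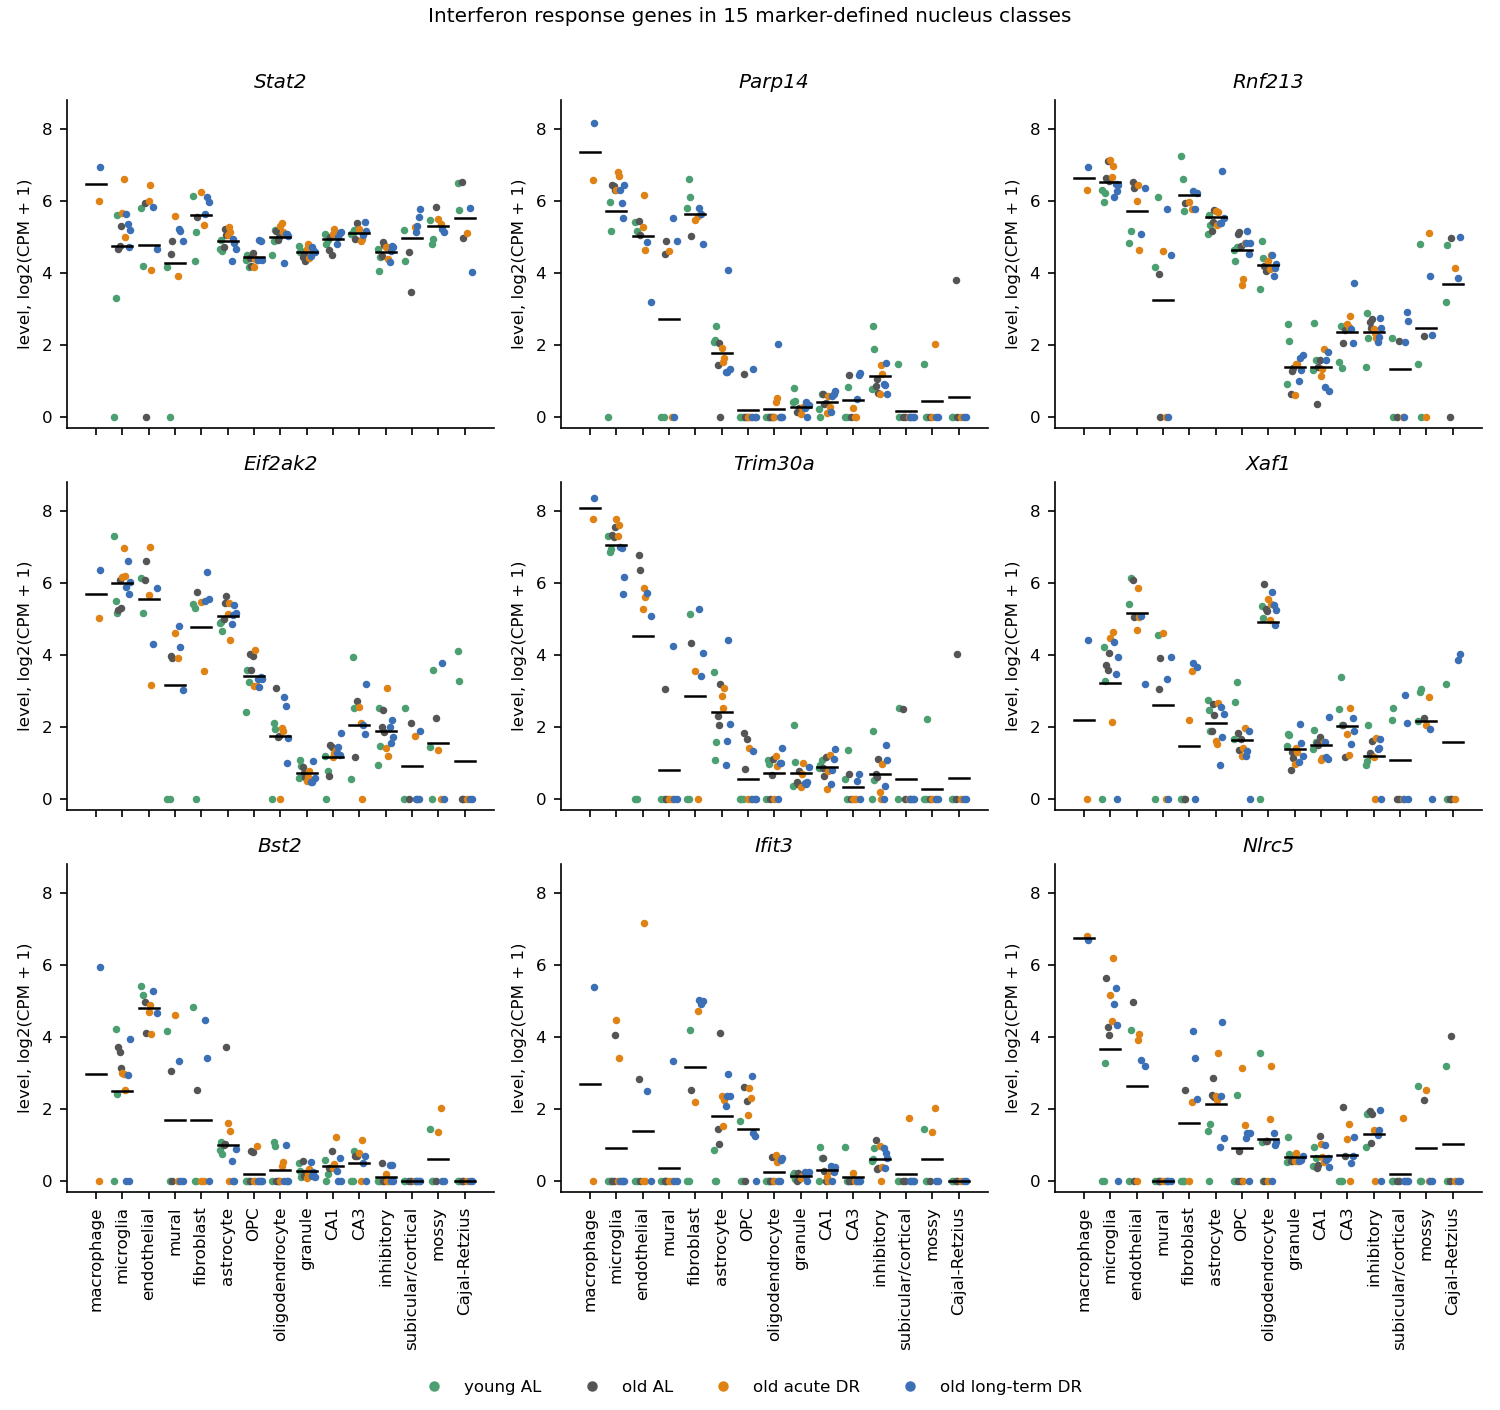
Level of each of the 9 genes, as log2(CPM + 1), by class (OPC, oligodendrocyte precursors), with a point for each mouse coloured by group (AL, freely fed; DR, restricted) and a line at the mean over mice of the log2 values. Stat2 lies in 1 band over all classes. Trim30a and Parp14 stand under 1 CPM in granule neurons and at 141 and 69.6 CPM in microglia, their highest mean among the tested classes.

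Stat2 was the member with the flattest pattern. Over the 10 tested classes its mean over mice ran from 20.9 ± 3.91 CPM in oligodendrocyte precursors (n = 13) to 42.0 ± 28.2 in endothelial cells (n = 9). In granule neurons it stood at 23 ± 2.29 CPM, with a lowest mouse of 19.2, a median of 23 and a highest of 26.9. Its called differences from the other nuclei were small. It was higher in CA3 neurons by 0.38 ± 0.20 on the log2 scale (SD over 11 mice, adjusted p = 0.00524), in oligodendrocytes by 0.27 and in CA1 neurons by 0.25. It was lower in granule neurons, oligodendrocyte precursors and inhibitory neurons, with differences of -0.34, -0.31 and -0.18. The call in inhibitory neurons was lost without young mouse 2 or 3, any 1 acutely restricted mouse, or long-term restricted mouse 1 or 2 (adjusted p up to 0.0572). No neighbouring pair in the order of its class means kept 1 order in every mouse.

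Among the products of the response, Trim30a was concentrated in immune cells. Its level was 141 ± 46.8 CPM in microglia (n = 13, lowest 51.2, median 154, highest 218), 46.3 ± 35.2 in endothelial cells (n = 9) and 5.71 ± 5.32 in astrocytes. Every other tested class had a mean of 2.82 CPM or less. The excess in microglia over the other nuclei was 5.92 ± 0.80 on the log2 scale, in 13 of 13 mice (adjusted p = 0.00103, which rests on the smallest p that 13 mice allow). Microglia were above endothelial cells in 9 of 9 mice. In the 2 mice with enough macrophages, Trim30a stood at 220 and 325 CPM.

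Parp14 stood at 69.6 ± 29.6 CPM in microglia (n = 13, lowest 0, median 77.6, highest 110), 52.5 ± 20.8 in fibroblasts (n = 9) and 35.6 ± 17 in endothelial cells (n = 9). Oligodendrocytes and their precursors held 5 UMIs of it in all, 3 and 2. Parp14 was seen in 22.5% of the 138 macrophages and in 9.60% of the 1636 microglia. The excess in microglia was 4.82 ± 1.76 on the log2 scale, in 12 of 13 mice (adjusted p = 0.00174). The mouse without it was young mouse 1, whose 20 microglia are the fewest of any mouse.

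Nlrc5 was led by macrophages, at 86.0 CPM over all mice (30 UMIs, 95% Poisson interval 58.0 to 123, counting error only), then microglia at 23.7 ± 21.3 (n = 13, lowest 0, median 19.2, highest 71.9). Its excess was 2.6 ± 2.12 on the log2 scale in microglia (10 of 13 mice, adjusted p = 0.00584) and 1.06 ± 1.14 in astrocytes (11 of 13, adjusted p = 0.0135). Mural cells held 0 UMIs of it. At their depth a count of 0 allows up to 3.5 CPM, so a lower level of Nlrc5 in mural cells, though called, was not detectable at this depth.

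Rnf213 and Eif2ak2 were the members called higher in microglia, endothelial cells, astrocytes and oligodendrocyte precursors alike. Rnf213 stood at 94.2 ± 25.3 CPM in microglia (lowest 62.1, median 87.5, highest 141), 57.9 ± 27.9 in endothelial cells and 48.5 ± 20.6 in astrocytes. Oligodendrocyte precursors had 25.0 ± 7.26 CPM and oligodendrocytes 18.3 ± 4.34, both above the other nuclei in 13 of 13 mice, by 1.89 ± 0.59 and 1.51 ± 0.41 on the log2 scale (adjusted p = 0.00103 each). Granule neurons had 1.82 ± 1.21 CPM. Astrocytes were above oligodendrocyte precursors in 13 of 13 mice, and inhibitory neurons (4.33 ± 1.27 CPM) above CA1 neurons (1.82 ± 1.22) in 13 of 13.

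Eif2ak2 stood at 70.4 ± 36.1 CPM in microglia (lowest 34.8, median 64.3, highest 156), 58.9 ± 37.5 in endothelial cells and 33.8 ± 8.14 in astrocytes. It was above the other nuclei in 13 of 13 mice in microglia (3.99 ± 0.91 on the log2 scale), astrocytes (3.41 ± 0.38) and oligodendrocyte precursors (1.33 ± 0.52), at an adjusted p of 0.00103 in each. In oligodendrocytes the difference was -0.41 ± 0.80, with 5 of 13 mice higher (adjusted p = 0.136). Its neighbours in the order, microglia, endothelial cells and astrocytes, did not keep their order in every mouse.

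Xaf1 was called higher in oligodendrocytes and endothelial cells. Its 736 UMIs in oligodendrocytes gave 37.2 ± 14.5 CPM (n = 13, lowest 0, median 38, highest 61.9), and endothelial cells had 40.6 ± 20.3 (n = 9). The excess was 3.31 ± 1.53 on the log2 scale in oligodendrocytes (12 of 13 mice, adjusted p = 0.00174) and 3.21 ± 1.00 in endothelial cells (9 of 9 mice, adjusted p = 0.00835 by the exact test). The oligodendrocyte mouse at 0 was young mouse 1, with 48 nuclei of that class. Oligodendrocyte precursors had 2.6 ± 2.16 CPM, and microglia 12.1 ± 7.68, where Xaf1 did not pass (adjusted p = 0.0555).

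Among the tested classes Bst2 was highest in endothelial cells, at 28.3 ± 8.88 CPM (n = 9, lowest 16.0, median 28.4, highest 41.5), and stood above microglia (7.15 ± 5.57) in 9 of 9 mice. In the 2 mice with enough macrophages it stood at 0 and 61.0 CPM. Its excess was 4.33 ± 0.46 on the log2 scale in endothelial cells (adjusted p = 0.00835, exact test) and 2.01 ± 1.59 in microglia (10 of 13 mice, adjusted p = 0.00524). Ifit3 had 30 UMIs in 40445 granule neurons. It reached 15.9 ± 13.8 CPM in fibroblasts (n = 9) and was called higher in astrocytes (1.34 ± 1.13 on the log2 scale, 11 of 13 mice, adjusted p = 0.00354) and oligodendrocyte precursors (0.92 ± 1.06, 9 of 13, adjusted p = 0.0217). Of its 15 UMIs in endothelial cells, 10 came from acutely restricted mouse 2, and 6 of the 9 mice had none.

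UMIs were sparse per nucleus. Trim30a was seen in 17% of microglia (median 1402 UMIs per nucleus) and in 0.504% of granule neurons (median 6371), and Xaf1 in 6.84% of oligodendrocytes (median 1886) and 1.09% of granule neurons. No measure of RNA free in the droplets was at hand, so markers of microglia were read in granule neurons. The 9 markers, summed, stood in granule neurons at 0.815% of their microglia level (0.363% to 3.11% by mouse). Trim30a in granule neurons stood at 0.531% of its microglia level and Parp14 at 0.339%, both below the markers' mean share, and these UMIs are not read as expression. The part of free RNA in them was not tested. The other members but Stat2 and Xaf1 stood above the markers' mean share, at 0.936% for Eif2ak2, 1.93% for Rnf213, 2.50% for Nlrc5, 2.75% for Ifit3 and 2.96% for Bst2. These are shares of means over mice, as is the markers' 0.815%, and are not set against the markers' range by mouse. The top of that range, 3.11%, came from young mouse 2. Its granule neurons held 228 CPM of the markers, against 110 or less in every other mouse. The part of free RNA in the members' shares was not tested either. Stat2 in granule neurons stood at 63.2% of its microglia level, above the markers. Xaf1 and Bst2 are highest in classes other than microglia, and Ifit3 was not called higher in microglia. These markers thus do not bear on the levels of Xaf1, Bst2 and Ifit3 in granule neurons. Rnf213 and Eif2ak2 were called higher in astrocytes too, whose markers were not read in granule neurons.

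Patterns over the 10 tested classes were compared as Pearson's r of class means of log2(CPM + 1). These are descriptions over 10 points that share libraries. Between members the highest value joined Trim30a and Nlrc5 (r = 0.93), followed by Rnf213 and Eif2ak2 (0.93) and Parp14 and Trim30a (0.92). Stat2 stood apart, with values from -0.14 to 0.26 against the other 8. Over all genes that reached 10 CPM in a class, the pattern nearest to Trim30a was that of Tgif1 (r = 0.99), then Ifi44 and Gm4951. Nearest to Parp14 were Parp10 (0.97), Tgfb1 and Anxa3, and to Eif2ak2 Plcb3 (0.97), Irgm1 and Apobec3. Rnf213 had Zfp787 (0.98), Acads and Nmi, and Nlrc5 had Rnaset2a (0.99), Mgat1 and Ctsa. Bst2 had Clec2d (0.99), Acvrl1 and Arf6, and Ifit3 Tmem176b (0.94), Als2cl and Triobp. Xaf1 had Llph (0.96), Bnip3l and Bcl2l1, and Stat2 Spef2 (0.86), Dop1b and Brap.

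A few single nuclei held many of the members at once. Of the 79830 named nuclei, 29 had UMIs of at least 5 of the 9 genes, in 11 of 13 mice. They were 8 microglia, 7 astrocytes, 6 macrophages, 4 endothelial cells, 3 fibroblasts and 1 oligodendrocyte, and no neuron. All 4 groups had them: 3 in young mice, 4 in old freely fed, 11 in acutely restricted and 11 in long-term restricted mice. The classes that held them differed in size too: taking the groups as just listed, there were 286, 293, 605 and 452 microglia, 19, 21, 44 and 54 macrophages and 1614, 1158, 1677 and 2860 astrocytes. No difference between groups is read from these counts. Members chose these nuclei, so the 72 other interferon-stimulated genes of a separate list were read in them. Their summed level was 9398 CPM in the 29 nuclei and 349 CPM in all other named nuclei. Within astrocytes it was 9440 against 554 CPM, within microglia 17152 against 1917, and within endothelial cells 6741 against 2955. All 29 had UMIs of such genes, against 79.2% of the others. Among the other nuclei of the same classes the share was 99.2% in macrophages, 97.4% in endothelial cells and 92.3% in fibroblasts. It was 89.1% in microglia, 75.2% in astrocytes and 50.6% in oligodendrocytes. The 29 nuclei had a median depth of 2218 UMIs against 5651 for all others, which are mostly neurons. Within a class they were deeper than the rest in 5 of 6 classes, with medians of 3377 against 2711 UMIs in astrocytes, 1498 against 1402 in microglia and 6205 against 1601 in endothelial cells. These are pooled values, with no test, and the part of depth in the choice of these nuclei was not tested.

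**Figure D2:**
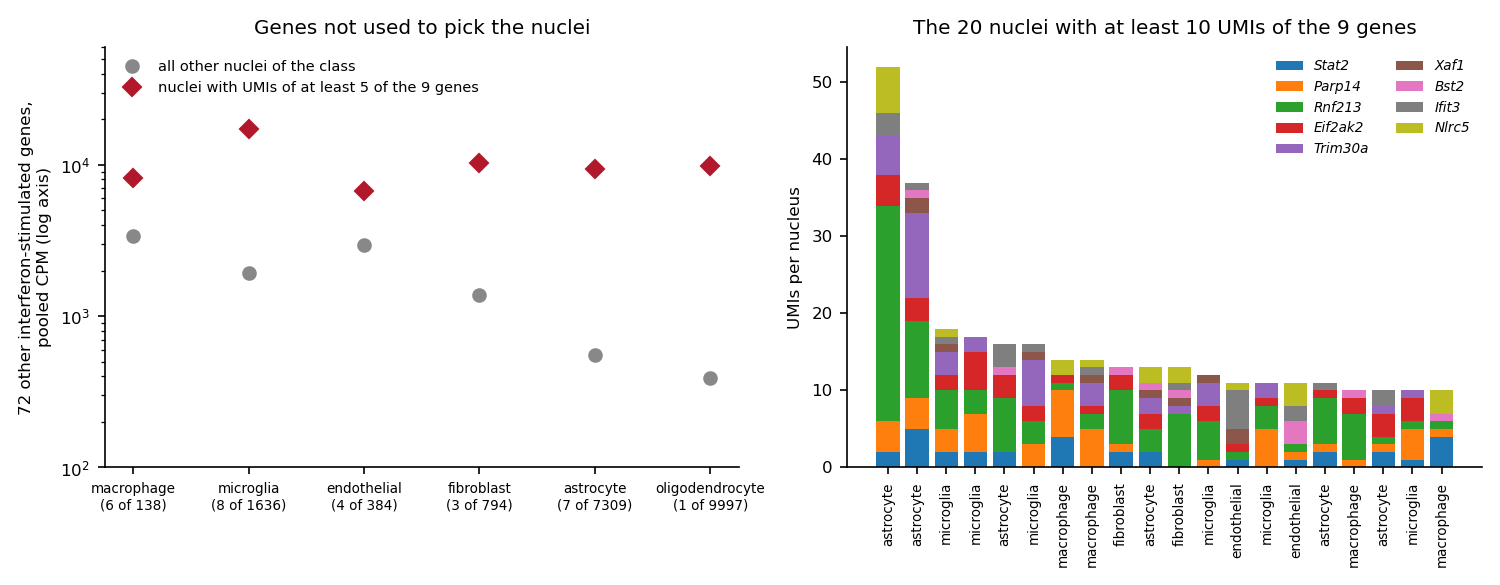
Left, summed level of 72 other interferon-stimulated genes (pooled CPM, log axis) by class, in nuclei with UMIs of at least 5 of the 9 genes and in the other nuclei of the class. Right, UMIs of each of the 9 genes in the 20 nuclei with at least 10 of their UMIs, named by class. The selected nuclei lie above the rest in all 6 classes, and 2 astrocytes hold 52 and 37 UMIs.

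Single nuclei with many member UMIs moved the value of their mouse. An astrocyte of long-term restricted mouse 3 held 52 of the 109 member UMIs of the 121 astrocytes of that mouse, 28 of them from Rnf213, in 4161 UMIs. Among the other genes it held 9 UMIs of Rsad2, 6 of Herc6 and 6 of Zc3hav1. Without it, Rnf213 in the astrocytes of that mouse stood at 50.6 CPM in place of 114, and the sum of the 9 genes at 131 in place of 248. An astrocyte of young mouse 1 held 37 of 133 member UMIs, 11 of them from Trim30a, with 12 UMIs of Herc6 and 10 of Iigp1. Without it, Trim30a in the astrocytes of that mouse stood at 1.64 CPM in place of 10.6. An astrocyte of old freely fed mouse 4 held 16 of the 44 member UMIs of its 81 astrocytes, and without it the sum stood at 116 CPM in place of 179. A fibroblast of young mouse 1 held 13 of 25 member UMIs, and without it the sum stood at 172 CPM in place of 345.

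In microglia the groups stood at different summed levels. The 9 genes summed to 391, 328 and 335 CPM in the 3 young mice, 479, 508 and 489 in old freely fed mice, and 641, 619 and 635 in acutely restricted mice. Long-term restricted mice stood at 427, 468, 269 and 372 CPM. The acutely restricted mice were thus above all others, and every old freely fed mouse was above every young and every long-term restricted mouse, which overlapped each other. No test was made of this sum, since the members were chosen with earlier results known. The share of nuclei with a member UMI, thinned to 1000 UMIs each, was tested. By exact permutation over mice none of 54 pairs of a class and contrast passed. In microglia the mean share was 25.0% in 2 young mice, 31.8% in old freely fed, 37.2% in acutely restricted and 27.9% in long-term restricted mice. The adjusted p was 0.635 for acute restriction and 0.617 for long-term against acute restriction. With 3 mice against 3 the smallest possible p was 0.1. Without the nucleus with most member UMIs in each mouse, the microglia sum was 521, 563 and 599 CPM in the acutely restricted mice. No such nucleus was left out in the other groups. Acutely restricted mouse 2 held microglia with 17 and 10 member UMIs, and mouse 3 with 16, 12 and 11, of which only the first was left out. Young mouse 1 entered with 20 microglia and 4 UMIs of Trim30a, so its sum rests on few UMIs. In other classes the sum gave other orders. In granule neurons young mice (30.5 to 37.2 CPM) were above old freely fed mice (24.2 to 26.9). In oligodendrocyte precursors old freely fed mice (66.5 to 80.2) were above acutely restricted mice (47.9 to 64.4). In oligodendrocytes and inhibitory neurons all groups overlapped. The share of genes whose groups part in this way was not counted.

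Single genes carried the sum in different ways. Trim30a in microglia stood at 156, 115 and 122 CPM in young mice, 160, 154 and 186 in old freely fed, 218, 158 and 194 in acutely restricted, and 126, 124, 51.2 and 71.5 in long-term restricted mice. The long-term restricted mice were below all old freely fed and all acutely restricted mice. Parp14 stood at 0, 62.1 and 34.8 CPM in young mice, 86.0, 84.6 and 77.6 in old freely fed, 77.5, 110 and 103 in acutely restricted, and 77.6, 60.6, 44.8 and 85.7 in long-term restricted mice. Young mice were below all old freely fed mice. Rnf213 stood at 78.2, 62.1 and 73.9 CPM in young mice, 98.3, 136 and 93.1 in old freely fed, 141, 99.7 and 125 in acutely restricted, and 67.9, 87.5, 76.8 and 85.7 in long-term restricted mice. Its young and long-term restricted mice overlapped and lay below the other groups. Nlrc5 stood at 0, 0 and 8.70 CPM in young mice, 49.2, 18.4 and 15.5 in old freely fed, 35.2, 20.6 and 71.9 in acutely restricted, and 29.1, 40.4, 19.2 and 0 in long-term restricted mice, with 72 UMIs in all. Eif2ak2 stood at 156, 44.3 and 34.8 CPM in young mice, 36.9, 66.2 and 38.8 in old freely fed, 70.4, 124 and 71.9 in acutely restricted, and 58.2, 97.6, 51.2 and 64.3 in long-term restricted mice. Its acutely restricted mice lay above the old freely fed ones, while young mouse 1 was above all others. That mouse stood at 156 CPM for Trim30a too, so both values rest on equally few UMIs, in the fewest microglia of any mouse.

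Macrophage markers, the nearest other cell type, were read in the same nuclei. The 8 markers summed to 274 to 302 CPM in young, 147 to 199 in old freely fed, 141 to 217 in acutely restricted and 213 to 259 in long-term restricted mice. Between 3 and 7 of the 8 were at 0 in each mouse. The 9 microglia markers were all present in each mouse. The part of these markers in the differences of the 9 genes was not tested.

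The groups were also read for Xaf1 in oligodendrocytes and Rnf213 in astrocytes. Xaf1 in oligodendrocytes stood at 0, 39.8 and 31.7 CPM in young mice, 61.9, 38 and 36.3 in old freely fed, 45.8, 30.5 and 41.9 in acutely restricted, and 52.3, 41.1, 27.5 and 36.8 in long-term restricted mice. The groups overlapped. Rnf213 in astrocytes stood at 32.7, 47.4 and 39.1 CPM in young mice, 35.1, 41.8 and 52.8 in old freely fed, 51.4, 38.9 and 50.9 in acutely restricted, and 40.8, 41.0, 114 and 45.1 in long-term restricted mice. These overlapped too. Without 1 nucleus each, the 52.8 of old freely fed mouse 4 stood at 24.8 CPM and the 114 of long-term restricted mouse 3 at 50.6.

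**Figure D3:**
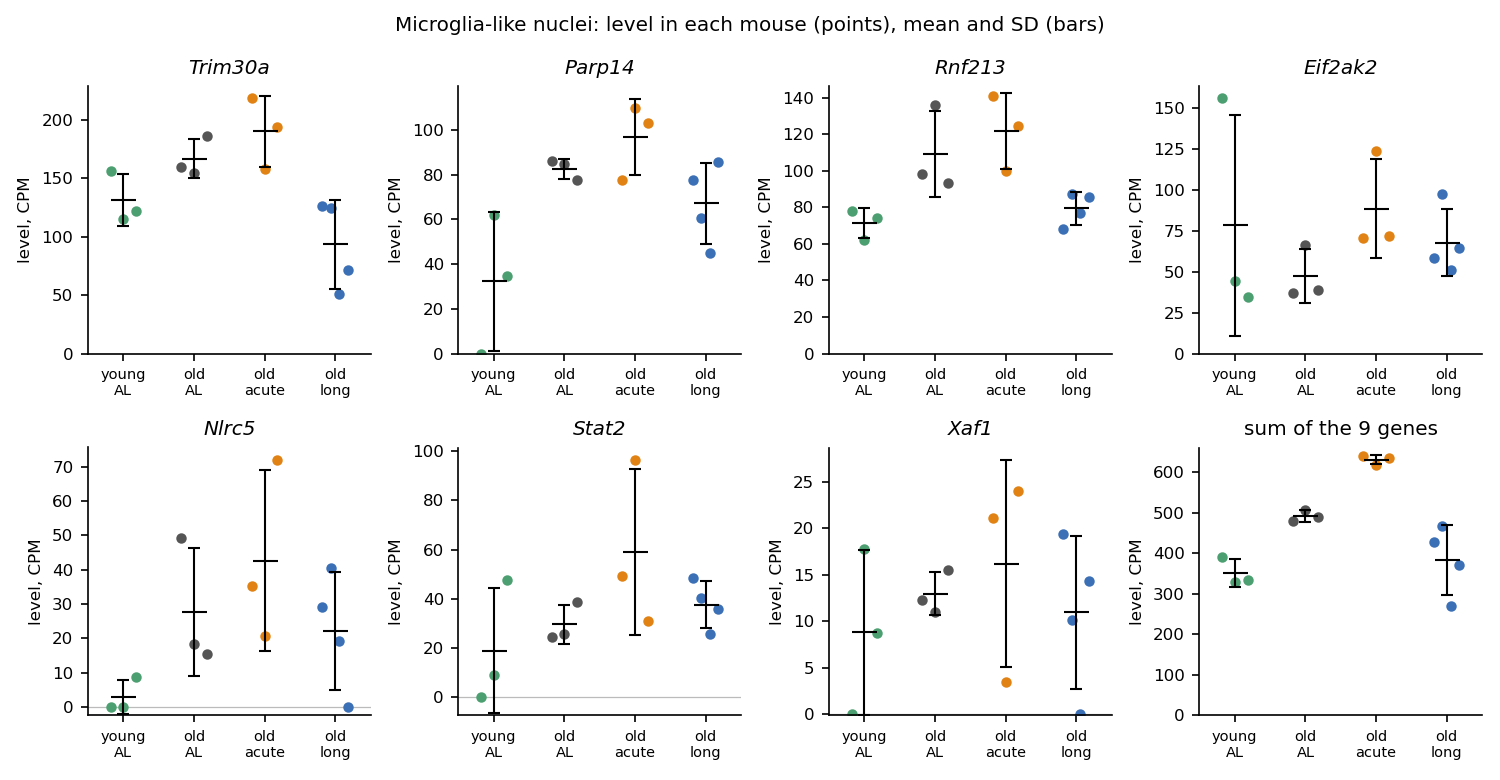
Level in microglia (CPM, linear axes) of 7 of the 9 genes and of the sum of all 9, with a point for each mouse and bars for the mean and SD of each group. Acutely restricted mice lie at the top of the sum, between 619 and 641 CPM, and long-term restricted mice between 269 and 468.

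Group differences were tested per class with edgeR's quasi-likelihood test on UMIs summed per mouse, and p-values were adjusted within each class over all genes tested there (Benjamini-Hochberg). A filter on low counts left 29 pairs of a member and a class of the 90: 7 each for Stat2, Rnf213 and Eif2ak2, 3 each for Trim30a and Xaf1, 1 each for Parp14 and Nlrc5, and none for Bst2 and Ifit3. No pair passed in any of the 6 contrasts, by edgeR or by DESeq2. Over all 95952 pairs of a gene and a class, edgeR called 1.76% for ageing (old freely fed minus young), 0.049% for long-term restriction and 0.239% for acute restriction, each against old freely fed mice. It called 0.0115% for long-term minus acute restriction, 5.04% for all old mice minus young and 0.197% for both restrictions minus old freely fed. These contrasts share groups. With an unadjusted p below 0.05 there were 1, 1, 2, 3, 2 and 1 of the 29 pairs, in that order. Over all pairs the shares were 18%, 4.89%, 5.28%, 3.04%, 23.2% and 5.80%. The median log2 fold change of the 29 was 0.09 for ageing and 0.18 for all old mice minus young, and that of all pairs -0.03 and -0.04.

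Ageing gave its smallest p to Parp14 in microglia, with a log2 fold change of 0.97 ± 0.45 (SE; edgeR adjusted p = 0.407). Rnf213 in microglia (0.68 ± 0.35, adjusted p = 0.486) and Eif2ak2 in astrocytes (0.52 ± 0.27, adjusted p = 0.380) followed, both with no overlap between old freely fed and young mice. Eif2ak2 in astrocytes stood at 28.6, 29.4 and 24.2 CPM in young and 31.1, 42.8 and 48.8 in old freely fed mice. Stat2 in inhibitory neurons (0.38 ± 0.20, adjusted p = 0.288) and Trim30a in granule neurons (-1.38 ± 0.71, adjusted p = 0.221) were next. Without young mouse 2, Trim30a in granule neurons stood at -0.30 (adjusted p = 0.829). None of these 5 passed. Rnf213 in microglia shrank most without old freely fed mouse 2, its highest of that group, and Stat2 in inhibitory neurons without young mouse 2.

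Long-term restriction gave its smallest p to Trim30a in microglia, at 93.3 CPM on average against 167 in old freely fed mice. Its log2 fold change of -0.79 ± 0.28 (SE) had an adjusted p of 0.778 by edgeR. Against acute restriction, at 190 CPM, it was -0.96 ± 0.25 (edgeR adjusted p = 0.407), the smallest unadjusted p of any member in any of the 6 contrasts, and it did not pass. Rnf213 in microglia was lower under long-term restriction by -0.51 ± 0.29 against old freely fed mice (adjusted p = 0.851) and by -0.55 ± 0.27 against acute restriction (adjusted p = 0.9998), without overlap in either. Parp14 in microglia differed from acute restriction by -0.61 ± 0.31, Stat2 in astrocytes by -0.47 ± 0.20 and Rnf213 in oligodendrocyte precursors by 0.59 ± 0.30. The remaining pairs named for long-term restriction against old freely fed mice were Xaf1 in granule neurons (0.64 ± 0.37), Stat2 in CA1 neurons (0.24 ± 0.15) and Stat2 in astrocytes (-0.31 ± 0.22). None of them passed. With 1 library left out, Rnf213 in microglia ran from -0.62 to -0.23 against old freely fed mice. In the same contrast Xaf1 in granule neurons ran from 0.27 to 0.87 and Stat2 in astrocytes from -0.49 to -0.16.

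Acute restriction gave its smallest p to Rnf213 in oligodendrocyte precursors, at 11.6, 13.4 and 27.3 CPM against 33.1, 34.4 and 25.7 in old freely fed mice. The groups overlapped, and the fitted log2 difference of -0.72 ± 0.30 (SE) had an adjusted p of 0.635 by edgeR. Stat2 in CA1 neurons stood at 32.7, 36.4 and 31.9 CPM against 24.1, 31.0 and 21.5, without overlap (0.36 ± 0.15, edgeR adjusted p = 0.9999). Eif2ak2 in microglia stood at 70.4, 124 and 71.9 CPM against 36.9, 66.2 and 38.8, also without overlap (0.76 ± 0.39, adjusted p = 0.9995). Stat2 in granule neurons (0.20 ± 0.13) and Xaf1 in CA1 neurons (-0.57 ± 0.44) were next. For both restrictions together the 5 pairs with the smallest p were Stat2 in CA1 neurons (0.30 ± 0.13), Rnf213 in oligodendrocyte precursors (-0.43 ± 0.24), Eif2ak2 in microglia (0.60 ± 0.36), Stat2 in granule neurons (0.19 ± 0.11) and Eif2ak2 in oligodendrocyte precursors (-0.48 ± 0.35). None of these passed. For acute restriction, leaving out 1 library moved Eif2ak2 in microglia between 0.42 and 1.22 and Rnf213 in oligodendrocyte precursors between -1.27 and -0.50. Stat2 in granule neurons moved between 0.09 and 0.33.

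**Figure D4:**
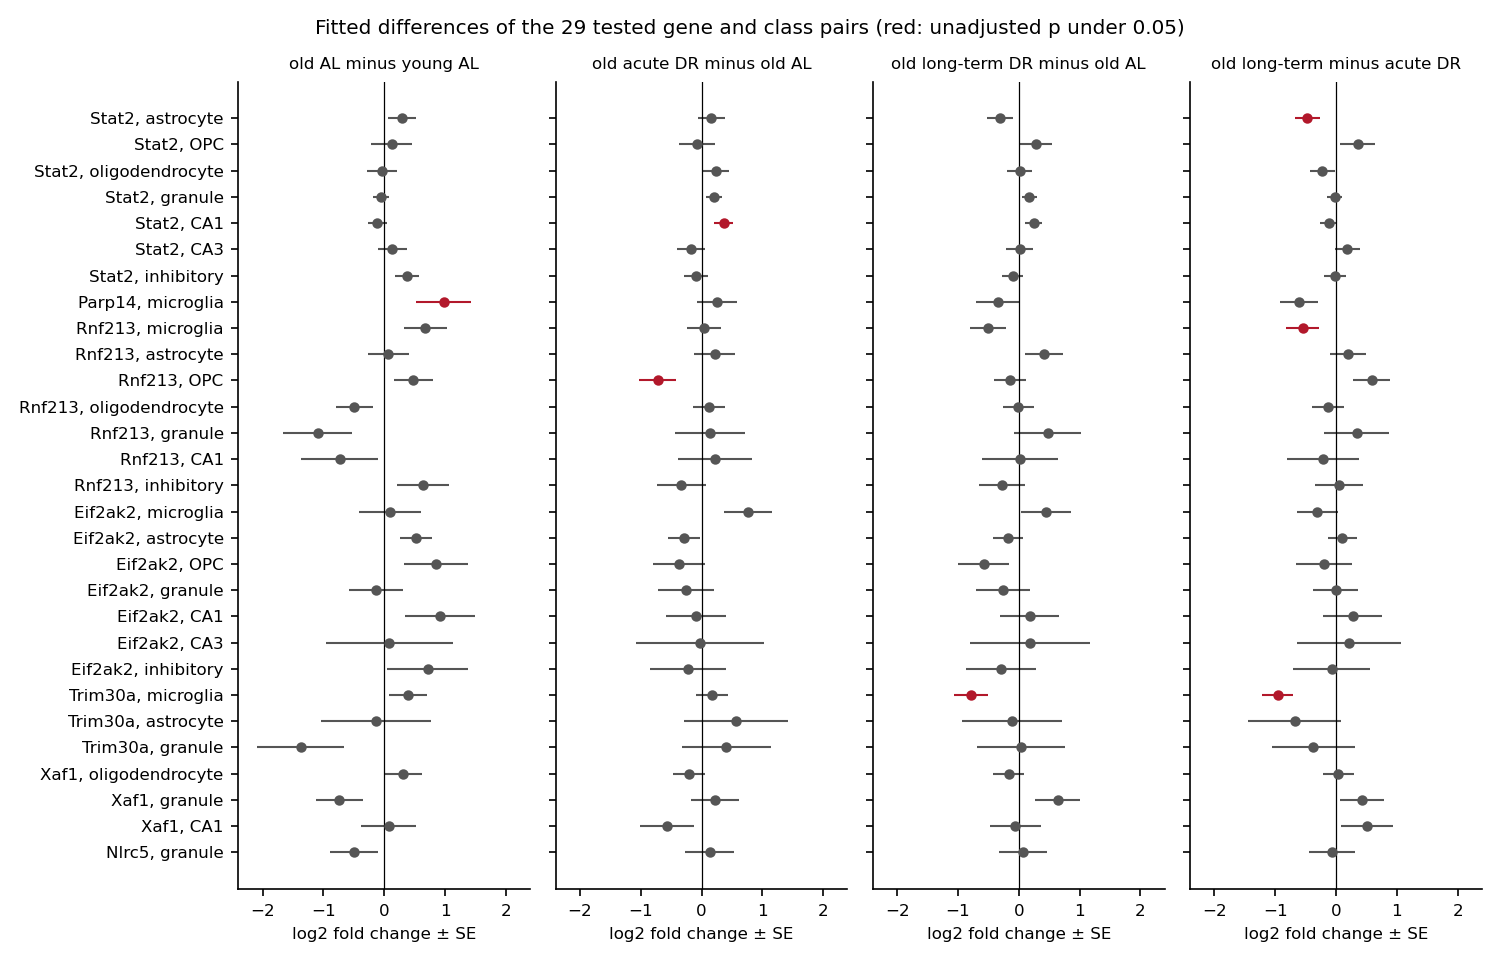
Log2 fold change (points, with SE as bars) of the 29 tested pairs of a gene and a class in 4 of the contrasts (AL, freely fed; DR, restricted; OPC, oligodendrocyte precursors), in red where the unadjusted p was below 0.05. No pair passed at an adjusted p below 0.05, and the 4 microglia values for long-term minus acute restriction are below 0.

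Granule neurons, with the most UMIs, gave the lowest adjusted p of the old against young contrasts. Trim30a stood at 0.28, 3.17 and 1.03 CPM in young mice, and at 0.26 to 1.01 in the 10 old mice. Rnf213 stood at 0.89, 4.95 and 3.31 CPM in young mice and at 0.51 to 2.30 in old ones. For all old mice minus young, the log2 fold change was -1.23 ± 0.52 for Trim30a (SE; edgeR adjusted p = 0.113) and -0.89 ± 0.43 for Rnf213 (adjusted p = 0.151). Young mouse 1 overlapped the old mice for both genes. Without it, both passed, at -1.71 for Trim30a (adjusted p = 0.0191) and -1.31 for Rnf213 (adjusted p = 0.0242), and the fit with the replicate number as a block gave -1.37 (adjusted p = 0.0348) and -0.92 (adjusted p = 0.0132). The edgeR fit with a term for libraries numbered 1, which deviated together, gave -1.19 for Trim30a (adjusted p = 0.0308) and -0.87 for Rnf213 (adjusted p = 0.00652). Without young mouse 2, neither passed, and the values shrank to -0.15 for Trim30a (adjusted p = 0.894) and -0.43 for Rnf213 (adjusted p = 0.645). Rnf213 passed for ageing too without young mouse 1 and with the block. The replicate numbers did not pair the samples, so no known feature of the design stands behind the block. With the median UMIs per nucleus as a covariate, the values for all old mice turned to 0.0684 for Trim30a and 0.00923 for Rnf213, and neither passed. The microglia markers in these granule neurons summed to 51.2, 228 and 110 CPM in young mice and to 33.0 to 92.0 in old ones, with all 9 markers above 0 in each young mouse. Young mouse 2 was highest for Trim30a, for Rnf213 and for the markers. The part of microglial RNA in these differences was not tested. Other pairs named for all old mice minus young were Parp14 in microglia (0.94 ± 0.39, adjusted p = 0.289), Eif2ak2 in CA1 neurons (0.95 ± 0.49) and Stat2 in inhibitory neurons (0.31 ± 0.16), and none passed.

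**Figure D5:**
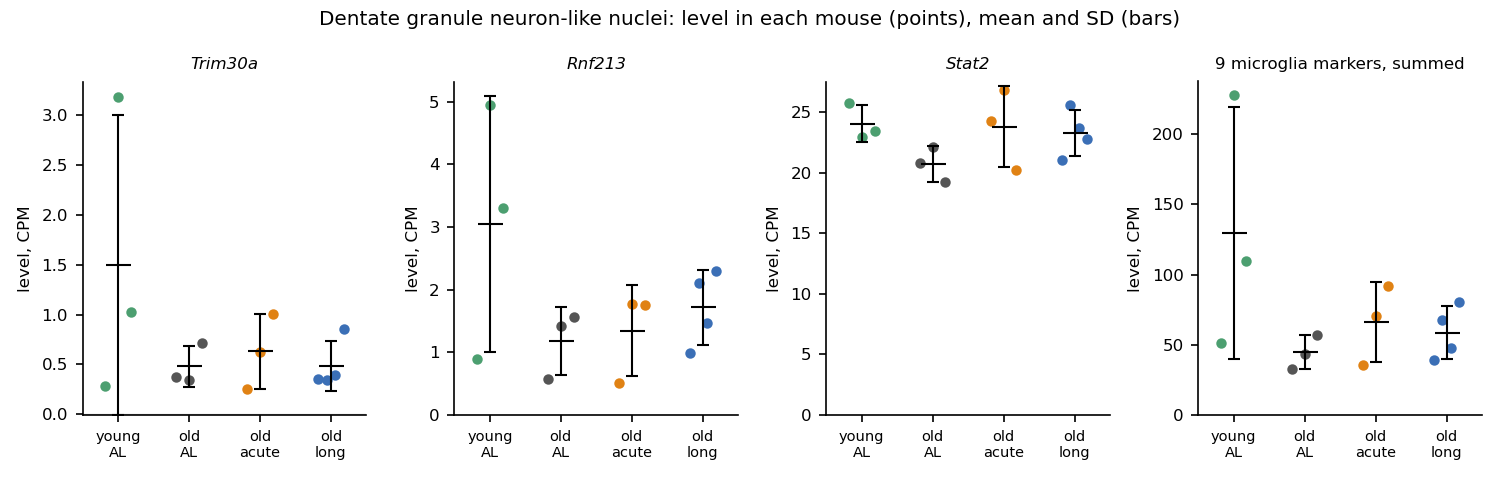
Level in granule neurons (CPM, linear axes) of Trim30a, Rnf213 and Stat2 and of 9 summed microglia markers, with a point for each mouse and bars for the mean and SD of each group. Young mouse 2 stands highest in Trim30a (3.17 CPM), Rnf213 (4.95 CPM) and the markers (228 CPM), while Stat2 has no such mouse.

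The rest of the pathway was read from 7 lists: ligands, receptors and kinases, transcription factors, nucleic acid sensors, other interferon-stimulated genes, negative regulators, and the MHC class I genes that NLRC5 switches on. In all, 88 of their genes could be tested, in 384 pairs of a gene and a class. For ageing 4 pairs were higher and 2 lower, against 0.988% and 0.774% of all pairs. For all old mice minus young 11 were higher and 3 lower, against 2.99% and 2.06%. As shares of the 384 pairs, the higher calls were close to those of all pairs in both contrasts, and the lower calls were below them. The lists were thus not called more often than genes in general. The median log2 fold change of the 384 pairs was 0.09 for ageing and 0.11 for all old mice, and that of all pairs -0.03 and -0.04. In the other 4 contrasts edgeR and DESeq2 both called 0 pairs, with 22, 22, 15 and 22 of 384 at an unadjusted p below 0.05. Over all pairs 4.89%, 5.28%, 3.04% and 5.80% were at such a p in these contrasts.

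Zc3hav1, an antiviral protein that binds CpG-rich viral RNA, had the smallest adjusted p of the lists. In granule neurons it stood at 1.46, 1.72 and 1.70 CPM in young mice, 4.55, 4.47 and 3.58 in old freely fed, 3.70, 5.77 and 3.84 in acutely restricted, and 5.53, 6.11, 5.19 and 4.70 in long-term restricted mice. No old mouse overlapped the young. The log2 fold change for all old mice minus young was 1.68 ± 0.20 (SE; edgeR adjusted p = 0.000952), and for ageing 1.53 ± 0.23 (adjusted p = 0.00787). It also rose in all old mice against young in astrocytes (1.47 ± 0.35, adjusted p = 0.0327) and oligodendrocyte precursors (1.30 ± 0.34, adjusted p = 0.0213). Each young mouse held only 4 to 7 UMIs of it in these classes. Each of these calls was lost when 1 of the libraries was left out (edgeR adjusted p up to 0.124 and 0.112).

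Stat3, a transcription factor of cytokine signals, stood in astrocytes at 75.6 to 88.9 CPM in young mice, 114 to 152 in old freely fed, 165 to 234 in acutely restricted and 125 to 151 in long-term restricted mice. All 10 old mice lay above the young, with a log2 fold change of 0.90 ± 0.14 (SE; edgeR adjusted p = 0.00203). In oligodendrocytes it rose by 0.97 ± 0.23 for ageing (adjusted p = 0.00935) and 0.84 ± 0.21 for all old mice (adjusted p = 0.0116). Both oligodendrocyte calls were lost when 1 of the libraries was left out (edgeR adjusted p up to 0.0852 and 0.137). Zc3hav1 in granule neurons and Stat3 in astrocytes, both for all old mice, kept their calls in every alternative fit that was run.

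The other calls were small or uncertain. In granule neurons Adar, which edits double-stranded RNA, rose by 0.47 for ageing and 0.44 for all old mice, and the factor Irf2 by 0.34 and 0.33. The receptor kinase gene Jak2 rose by 0.38 in all old mice. Ifnk, an interferon gene, fell in granule neurons (-1.76 for ageing and -1.28 for all old mice) and oligodendrocytes (-1.35 and -1.20). Leaving out 1 library shrank the oligodendrocyte values to as little as -0.79 and -0.63 (edgeR adjusted p up to 0.610 and 0.673). Ifnk lies within Mob3b on the opposite strand, so that reads of these genes may not be told apart, with the use of strand unknown. Its granule neuron level was 0.81 to 1.40 CPM in young mice. The remaining 4 calls for all old mice, named after their values were seen, were Xrn1 in granule neurons and Pias1 and Rtp4 in astrocytes, all higher, and Tlr3 in astrocytes, lower. Stat3 (with Stat5a), Adar (with Chrnb2), Rtp4 (with Masp1), Irf2, Xrn1 and Tlr3 overlap genes on the opposite strand too, with the same limit as Ifnk. Without young mouse 2, the calls for all old mice went from 14 to 2, those of Zc3hav1 in granule neurons and Stat3 in astrocytes. The calls for ageing went from 6 to 0.

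The MHC class I list, the targets of Nlrc5, had 40 pairs tested and none called in any of the 6 contrasts by edgeR, with 2, 4, 3, 4, 3 and 1 of them at an unadjusted p below 0.05 in the order given above. Over all pairs the shares at such a p were 18%, 4.89%, 5.28%, 3.04%, 23.2% and 5.80%.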

How the data were processed

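Nuclei of whole frozen hippocampus from 13 mice were profiled with a droplet 3′ method, 1 library per mouse. The deposited matrices hold raw UMI counts per gene and barcode. Cell Ranger 4.0.0 and mm10 are named per the submitters' processing notes; intronic counting, strand use and removal of free RNA or doublets are not given in the sources used here.

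Barcodes under 500 genes or above 5% of mitochondrial UMIs were dropped, and the 7386 barcodes (7.01%) with the highest Scrublet scores in their library, 0.8% per 1000 barcodes, were removed as doublets. Scanpy 1.11.5 and leidenalg 0.10.2 clustered the nuclei without 148 genes, the members and interferon lists among them. The resolution was raised to 2 after a first round in which the macrophage cluster held many doublets. Names came from markers; 18211 nuclei in 22 clusters stayed unnamed.

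UMIs were summed per mouse and class (at least 20 nuclei). Group contrasts used edgeR 4.0.16 (quasi-likelihood, TMM, filterByExpr, all 4 groups in 1 fit) in R 4.3.3, with DESeq2 1.42.0 as an alternative. Class levels used exact sign-flip tests, adjusted over all gene and class pairs rather than over the members as planned. Both were tested on simulated data. The alternatives were other scalings, filters, a replicate block, a term for libraries numbered 1, depth and length corrections, doublets kept and each library left out. The members and lists were chosen with earlier results of these data known. Named were all members, the called pairs or the 5 with the smallest p, at most 10 called list genes per contrast and 3 like genes per member.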

Additional observations from a re-analysis of the deposited data

Results flagged for a closer look

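In 7 of 41 groups of 4 mice, 1 long-term restricted mouse stood apart from the other 3 by Dixon's criterion (critical value 0.829), which chance meets in about 1 of 20 groups. Mouse 3 was high in astrocytes for Rnf213 (114 CPM against 40.8 to 45.1), Trim30a (20.5 against 0.927 to 3.26) and the sum of the 9 genes (248 against 96.0 to 121). Without the single nucleus with most member UMIs these stood at 50.6, 9.20 and 131 CPM. Mouse 3 was also high for Eif2ak2 in granule neurons (1.08 CPM against 0.391 to 0.497). Mouse 4 was high in granule neurons for Trim30a (0.858 CPM against 0.342 to 0.391) and Nlrc5 (0.632 against 0.474 to 0.489). Mouse 1 was low for Stat2 in oligodendrocytes (18.5 CPM against 31.7 to 33.0).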

How the results depend on the processing

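Over all alternatives, 648 fold changes of the pairs of a member and a class named in the report kept their direction and side of the threshold, 6 came to pass and 3 turned. Of the class levels, 869 kept theirs and 43 no longer passed, with a library left out those of Parp14 in astrocytes, Trim30a in endothelial cells, Stat2 in inhibitory neurons, Bst2 in oligodendrocyte precursors and Ifit3 in CA3 neurons. For ageing, where 0 member pairs passed, 1 passed with the replicate block, 1 with the term for libraries numbered 1, and 0 to 1 with a library left out (1 without young mouse 1). For all old mice minus young, again 0, there were 1 without the low-count filter, 2 with the block, 2 with that term, and 0 to 2 with a library left out (2 without young mouse 1). With the median UMIs per nucleus as a covariate, the log2 fold changes in granule neurons turned to 0.398 (Trim30a, ageing), 0.0684 (Trim30a, all old) and 0.00923 (Rnf213, all old). The cause was not tested. List pairs for ageing went from 6 to 3 without TMM, 16 with the number-1 term, 0 with median UMIs, 2 with the length trend removed, 1 with only the contrast's groups, and 0 to 6 with a library left out (0 without young mouse 2; 1 without old freely fed mouse 2 or 4; 2 without old freely fed mouse 1, acutely restricted mouse 2 or 3, or long-term restricted mouse 4; 3 without long-term restricted mouse 2). For all old mice they went from 14 to 26 with the block, 25 with the number-1 term, 2 with median UMIs, 4 with the length trend removed, and 2 to 21 with a library left out (2 without young mouse 2, 9 without old freely fed mouse 4 or acutely restricted mouse 2). From 0, acute restriction gave 2 without the filter and 0 to 1 with a library left out (acutely restricted mouse 2), long-term against acute restriction 1 without the filter, 1 with the block and 0 to 1 with a library left out (that mouse or long-term restricted mouse 1), and both restrictions 1 with doublets kept. Nuclei with many members, 29, became 54 at 4 genes and 17 at 6, chosen after seeing the data.

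The replicate numbers did not pair the samples: libraries numbered 1 deviated together (r from 0.47 to 0.83 in granule neurons), as did the 1 pair numbered 4 (0.586), while those numbered 2 (-0.15 to 0.32) and 3 (-0.25 to 0.52) did not all do so. Bst2 and Ifit3 had too few UMIs for the group contrasts in every class, and low levels and depth cannot be told apart there.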
